A study of Mus musculus with 37 samples.

Results

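Genes for calcium handling and ion channels were followed in neonatal rat ventricular myocytes (NRVM), a primary heart muscle culture, after treatment with 5 conditioned media. The set holds 33 named genes, chosen by symbol for their role in cardiac excitation and calcium cycling, with earlier results of these data known. Of these, 32 were present among the 20158 genes of the NRVM count table and 30 had enough reads to be tested, among 13461 genes tested in all. Kcnd2, a subunit of the transient outward potassium channel, was not analysed here. Kcnip2, which assists that channel, had 1 read over all 15 libraries, which may reflect the annotation used for counting, not checked here. Kcna5, an ultrarapid potassium channel, had 18 reads over the 3 AMP libraries, 17 of them in AMP replicate 3, and at most 3 in any other medium. Neither Kcnip2 nor Kcna5 was therefore tested.

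The study asked how ENPP1, an ectonucleotidase that hydrolyses extracellular ATP to AMP and pyrophosphate, alters communication between cardiac cells after injury. Wild-type NRVM of the Sprague-Dawley strain were kept at low density in serum-free medium and then held for 24 hours in myocyte conditioned medium (MCndM). That medium had been collected from other NRVM given vehicle, recombinant ENPP1, ATP, ENPP1 with ATP (ENPP1+ATP) or AMP. Each medium was represented by 3 libraries of total RNA. The cells are therefore a neonatal culture exposed to what other myocytes released or left behind, and the added agents may have carried over. GEO's organism field gives mouse for these samples, whereas the cell type is rat. Nothing in the labels says that the 3 libraries came from separate isolations, so the p-values measure the spread between these libraries only.

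In a heart cell, an action potential opens L-type calcium channels, and the small inward calcium current opens ryanodine receptors of the sarcoplasmic reticulum (SR), which release the calcium that starts contraction. Calcium is then pumped back into the SR by SERCA2 and expelled from the cell by the sodium-calcium exchanger. Potassium channels restore the resting potential, pacemaker channels drive spontaneous beating of immature and nodal cells, and connexins pass the impulse between neighbouring cells.

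Libraries held between 13481389 and 16977980 reads, with a median of 14937081. No pair of replicates had identical values, and the biological coefficient of variation was 0.0499. Summed genes of the sarcomere, the contractile apparatus, made up 54406 to 57380 CPM (counts scaled to a fixed library total) with vehicle medium, so the defining transcripts of the labelled cell type were abundant. This sum was 32569 to 34816 CPM with ATP medium, 46042 to 48165 CPM with ENPP1+ATP medium and 53058 to 56905 CPM with AMP medium. Fibroblast markers summed to 29707 to 31314 CPM with vehicle medium, 13230 to 15236 CPM with ATP medium, 10248 to 10724 CPM with ENPP1+ATP medium and 14446 to 15423 CPM with AMP medium, and against vehicle 8, 7 and 6 of the 11 tested were lower and 1, 1 and 2 higher in these 3 media. Smooth muscle and pericyte markers ranged from 1508.6 to 2155.2 CPM and endothelial markers from 151.36 to 306.7 CPM over all media. In the same 3 media 4, 3 and 4 of the 10 smooth muscle and pericyte markers were lower and 2, 1 and 1 higher. Of the 9 endothelial markers 2, 2 and 2 were lower and 5, 2 and 4 higher, so that most of those called with ATP were higher, while Eng, which holds most of the sum, had a mean of 232.3 CPM with vehicle and 140.8 CPM with ATP. Immune markers reached at most 23.2 CPM, with 4, 2 and 4 of the 5 tested higher and none lower. Of these, Csf1r had means of 0.577 CPM with vehicle, 7.431 CPM with ATP, 3.949 CPM with ENPP1+ATP and 4.45 CPM with AMP. Means of Cd68 were 1.614, 4.084, 2.607 and 2.622 CPM in the same order. The macrophage genes C1qa, C1qb, C1qc and Adgre1 had at most 3 reads in any library. Of all genes tested, 29.7%, 27.4% and 28% were called lower and 30.2%, 28.6% and 29.2% higher in the same 3 media. The marker sums moved with the media, and their part in the results on channel genes was not tested. In bulk RNA, fewer cells of a type and less RNA per cell cannot be told apart.

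**Figure D1:**
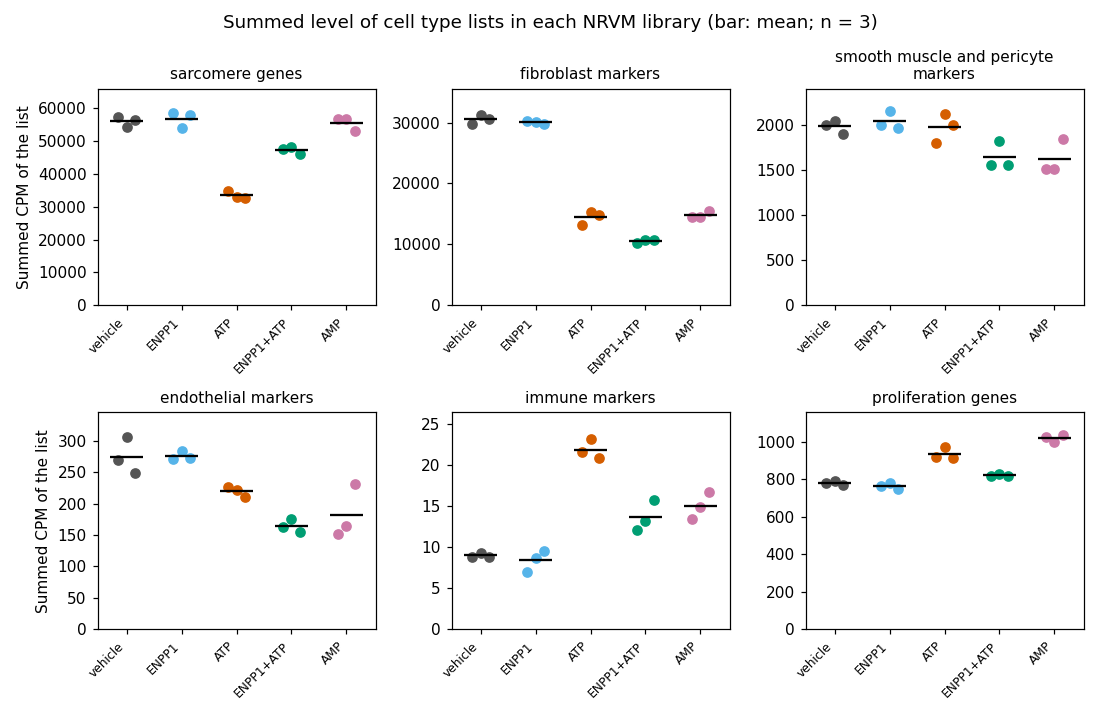
Summed CPM (vertical axis, starting at 0) of marker lists in each of the 15 NRVM libraries, by medium on the horizontal axis; points are libraries and bars are means of 3. Sarcomere genes are lowest with ATP medium (32569 to 34816 CPM), and fibroblast markers are lower with ATP, ENPP1+ATP and AMP medium than with vehicle or ENPP1 medium.

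All 30 genes tested varied among the media (edgeR quasi-likelihood F test, adjusted p below the 0.05 threshold), where 73.8% of all genes did. Differences below are log2 fold changes with their standard error, and adjusted p-values are those of edgeR after Benjamini-Hochberg adjustment over all 13461 genes. CPM values were scaled between libraries by TMM, a method that takes most genes as unchanged. Because the sarcomere sum itself fell with ATP medium, each comparison was repeated with libraries scaled to equal sarcomere counts, which expresses a gene per unit of contractile transcript. That scaling moved the median of all genes by 0.74 in ATP against vehicle, by 0.25 in ENPP1+ATP against vehicle, by -0.50 in ENPP1+ATP against ATP, by -0.23 in AMP against ENPP1+ATP and by 0.01 in AMP against vehicle. Since it moves all genes of a comparison nearly alike, it can turn the sign of a difference but leaves a gene's place among the other genes. Under sarcomere scaling 28 members varied among the media, as did 12508 of the 13461 genes.

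ATP MCndM lowered most of the channel and calcium genes relative to vehicle under TMM scaling. Of the 30 genes 25 were called, 20 lower and 5 higher, where 59.9% of all genes were called, 29.7% lower and 30.2% higher. The median difference of the members was -0.43, and that of all genes tested was 0.01. Scaled to sarcomere genes, 18 members were higher and 7 lower than with vehicle, where 85.3% of all genes were called, 80.5% higher and 4.78% lower. The members' median minus that of all genes was -0.43 under TMM scaling and -0.44 under sarcomere scaling. The 7 that were lower under both scalings were Ryr2, Cacna1c, Cacna2d1, Cacna1g, Slc8a1, Kcnj5 and Hcn4. Calls for Cacna1h and Atp1b1 were lost on leaving out 1 library. For Cacna1h, these were ATP replicate 2 (-0.11), ATP replicate 3 (-0.11) or vehicle replicate 2 (-0.12). For Atp1b1, they were ATP replicate 1 (0.06), vehicle replicate 1 (0.10) or vehicle replicate 3 (0.10). Jph2 missed the threshold when only these 2 groups were fitted (adjusted p = 0.0516).

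ENPP1+ATP MCndM gave a mixed picture against vehicle. Of the 30 genes 24 were called, 15 higher and 9 lower, where 56% of all genes were called, 28.6% higher and 27.4% lower, and the median difference was 0.16 against 0.01 over all genes. With sarcomere scaling the counts were 18 and 7, where 63.1% of all genes were called, 50% higher and 13.1% lower. MCndM from NRVM given AMP, a product of ATP hydrolysis, gave 23 calls, 16 higher and 7 lower, where 57.2% of all genes were called, 29.2% higher and 28% lower, with a median of 0.13 against 0.01, and 15 and 7 with sarcomere scaling, where 53.4% of all genes were called, 28.2% higher and 25.2% lower. All these comparisons share the vehicle libraries.

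ENPP1 medium without ATP left every member below the threshold. None of the 30 was called, as none of all genes was (0%), and 4 members and 693 genes in all had an unadjusted p below 0.05 in edgeR. DESeq2 called 0 members and 1 gene. Member differences lay between -0.13 and 0.17, with 95% confidence limits no wider than -0.54 and 0.45 for any member.

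Set against ATP medium, ENPP1+ATP medium had higher levels of 26 members and a lower level of 1, Kcnd3, where 27.5% of all genes were called, 14.1% higher and 13.5% lower. The median difference was 0.47 against -0.01 over all genes. Scaled to sarcomere genes, 8 members were higher and 10 lower, where 80% of all genes were called, 1.14% higher and 78.9% lower. The members' median lay above that of all genes by 0.49 under either scaling. The 8 that were higher under both scalings were Ryr2, Atp2a2, Pln, Cacna1c, Cacnb2, Cacna1g, Slc8a1 and Kcnj3. Calls for Sln, Trdn, Kcnj5, Hcn2 and Gja5 were lost without 1 library. Sln lost its call without ATP replicate 3 (0.31), ENPP1+ATP replicate 1 (0.27) or ENPP1+ATP replicate 2 (0.26), and Trdn without ATP replicate 2 (0.14) or ENPP1+ATP replicate 2 (0.14). For Kcnj5 it was lost without ATP replicate 2 (0.17), ATP replicate 3 (0.17) or ENPP1+ATP replicate 1 (0.13), and with DESeq2 (adjusted p = 0.0625). Hcn2 lost it without ENPP1+ATP replicate 2 (0.20), and Gja5 without ATP replicate 3 (0.72) or ENPP1+ATP replicate 2 (0.73).

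An interaction term tested whether ENPP1 changed a gene by a different amount with ATP than without it. It was positive for 17 members and negative for 1, Kcnd3, where 14.8% of all genes were called, 8.01% and 6.8% in these directions. Under sarcomere scaling it was positive for 7 and negative for 11, where 66.9% of all genes were called, 0.773% and 66.1% in these directions.

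**Figure D2:**
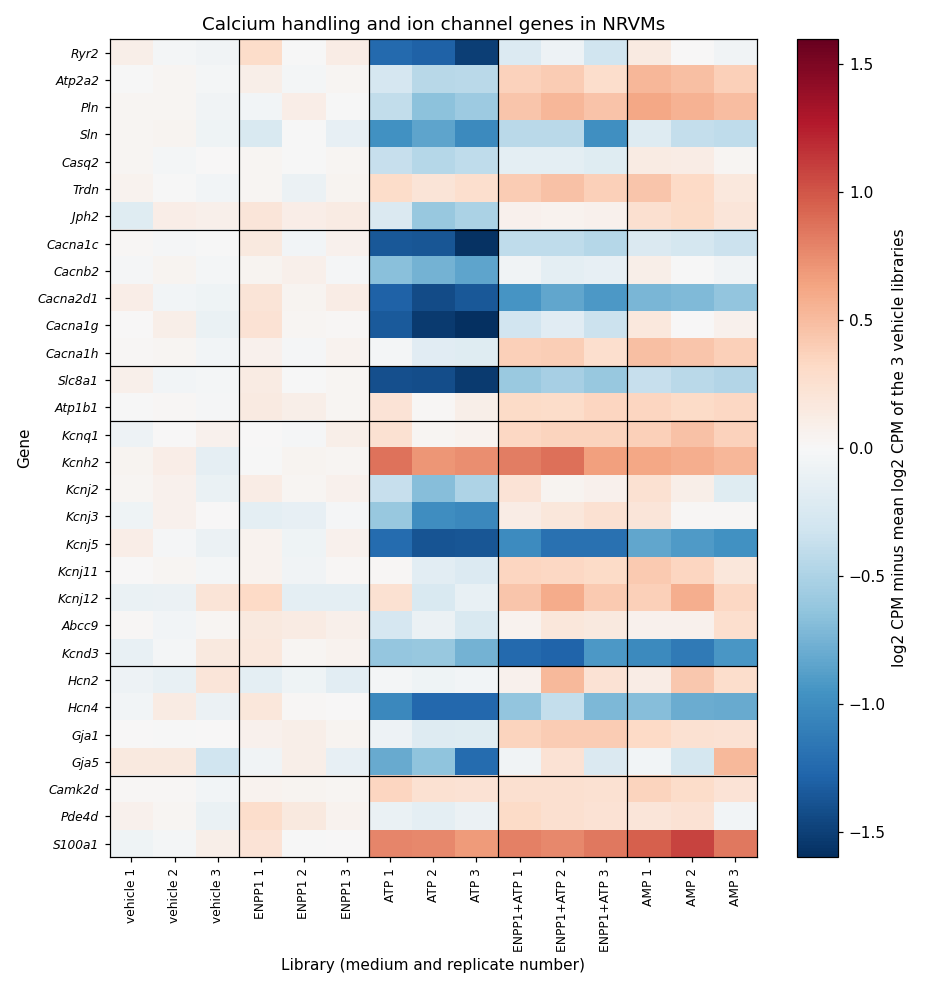
Heat map of log2 CPM minus the mean of the 3 vehicle libraries, for 30 genes (vertical axis, in blocks by role) in 15 NRVM libraries (horizontal axis); red is above and blue below vehicle under TMM scaling. ATP libraries are blue for 20 called genes, of which 7 are also lower when libraries are scaled to sarcomere genes, and the ENPP1 libraries stay near 0.

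Genes of the SR were the first group, with 7 tested. Under TMM scaling ATP medium lowered 6 and raised 1, ENPP1+ATP medium raised 3 and lowered 2, and AMP medium raised 5 and lowered 1, while sarcomere scaling gave 5 higher and 1 lower with ATP, 4 and 1 with ENPP1+ATP, and 5 and 1 with AMP. Counts by role are a description of few genes and are to be read against the shares of all genes. Those were 30.2% higher and 29.7% lower with ATP, 28.6% and 27.4% with ENPP1+ATP, and 29.2% and 28% with AMP under TMM scaling, and 80.5% and 4.78%, 50% and 13.1%, and 28.2% and 25.2% under sarcomere scaling.

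Ryr2, the release channel of the SR, was read at 1096, 1005 and 988 CPM in the vehicle libraries, 1257, 1021 and 1114 CPM with ENPP1, 435, 418 and 363 CPM with ATP, 886, 970.4 and 827 CPM with ENPP1+ATP, and 1134, 1030 and 990.1 CPM with AMP. The ATP libraries lay apart from and below all others. The fall from vehicle was -1.34 ± 0.10 (adjusted p = 3e-07), so that Ryr2 fell by 60.6%. The difference was -0.60 with sarcomere scaling. ENPP1+ATP medium stood at -0.20 ± 0.10 against vehicle (adjusted p = 0.0963; 95% interval -0.42 to 0.01), and at 1.14 ± 0.10 above ATP medium (adjusted p = 5.14e-06). When only these 2 groups were fitted, the difference of ENPP1+ATP from vehicle passed the threshold (adjusted p = 0.0287). Scaled to sarcomere genes that difference was 0.04.

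Atp2a2 encodes SERCA2, the pump that refills the SR. Its levels were 2535, 2601 and 2486 CPM with vehicle, 2716, 2495 and 2603 CPM with ENPP1, 2115, 1874 and 1888 CPM with ATP, 3272, 3365 and 3097 CPM with ENPP1+ATP, and 3663, 3539 and 3313 CPM with AMP. The groups with ATP, with vehicle and with ENPP1+ATP did not overlap, and ENPP1+ATP and AMP libraries were the highest. Atp2a2 differed from vehicle by -0.38 ± 0.04 with ATP, which became 0.37 with sarcomere scaling, by 0.35 ± 0.04 with ENPP1+ATP and by 0.46 ± 0.04 with AMP (adjusted p = 3.24e-09, 1.48e-08 and 2.31e-11).

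Pln encodes phospholamban, the inhibitor of SERCA2. It was read at 1537, 1528 and 1442 CPM with vehicle, 1456, 1611 and 1498 CPM with ENPP1, 1139, 954 and 1008 CPM with ATP, 2047, 2172 and 2069 CPM with ENPP1+ATP, and 2298, 2206 and 2108 CPM with AMP. By their means under TMM scaling, pump and inhibitor had the same order of these media, with ATP lowest and AMP highest. AMP against ENPP1+ATP was called for neither gene under TMM scaling. With sarcomere scaling AMP was called lower than ENPP1+ATP for both, by -0.12 for Atp2a2 and -0.16 for Pln. Pln differed from vehicle by -0.54 ± 0.05 with ATP (0.20 with sarcomere scaling), 0.48 ± 0.05 with ENPP1+ATP and 0.55 ± 0.05 with AMP, all past the threshold.

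Sln, the sarcolipin gene, encodes a small SERCA regulator best known in atrial muscle. Levels were 25.4, 25.6 and 23.6 CPM with vehicle, 12.6, 13.8 and 12.3 CPM with ATP, 18.4, 18.5 and 12.6 CPM with ENPP1+ATP, and 21.6, 19.0 and 18.7 CPM with AMP. Unlike Pln, it was below vehicle in all 3 media, by -0.94 ± 0.11, -0.59 ± 0.10 and -0.33 ± 0.10, and the difference with ATP was -0.20 and not called under sarcomere scaling. ENPP1+ATP replicate 3 lay within the range of the ATP libraries.

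Calsequestrin 2 (Casq2), the calcium buffer in the SR lumen, had 1200, 1143 and 1175 CPM with vehicle, 909, 852 and 887 CPM with ATP, 1054, 1056 and 1024 CPM with ENPP1+ATP, and 1284, 1273 and 1200 CPM with AMP. ENPP1+ATP lay between ATP and vehicle without overlap. The differences from vehicle were -0.41 ± 0.04 with ATP and -0.17 ± 0.04 with ENPP1+ATP, which turned to 0.33 and 0.08 with sarcomere scaling, and 0.09 ± 0.04 with AMP. The call with AMP was lost without AMP replicate 1 (0.07), AMP replicate 2 (0.08), vehicle replicate 2 (0.08) or vehicle replicate 3 (0.10), and with no filter on low counts (0.08).

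Trdn, encoding triadin, which anchors calsequestrin to the release channel, rose in all 3 media. It measured 132 to 142 CPM with vehicle, 158 to 167 CPM with ATP, 178 to 189.5 CPM with ENPP1+ATP and 153 to 185 CPM with AMP, with no overlap with vehicle, and differed by 0.25 ± 0.05, 0.42 ± 0.05 and 0.31 ± 0.05. Jph2, encoding the junctophilin that holds the SR against the cell membrane, had 204, 251 and 245 CPM with vehicle, 198, 153 and 164 CPM with ATP, 243, 241 and 243 CPM with ENPP1+ATP, and 277, 286 and 264 CPM with AMP. It fell by 0.44 with ATP, which became a rise of 0.30 under sarcomere scaling. With ENPP1+ATP it stood at 0.06 ± 0.09, not called, and at 0.30, a call, under sarcomere scaling. Its rise with AMP (0.24 ± 0.09, adjusted p = 0.0415) was lost without AMP replicate 1 (0.23), AMP replicate 2 (0.21), AMP replicate 3 (0.27) or vehicle replicate 1 (0.15).

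**Figure D3:**
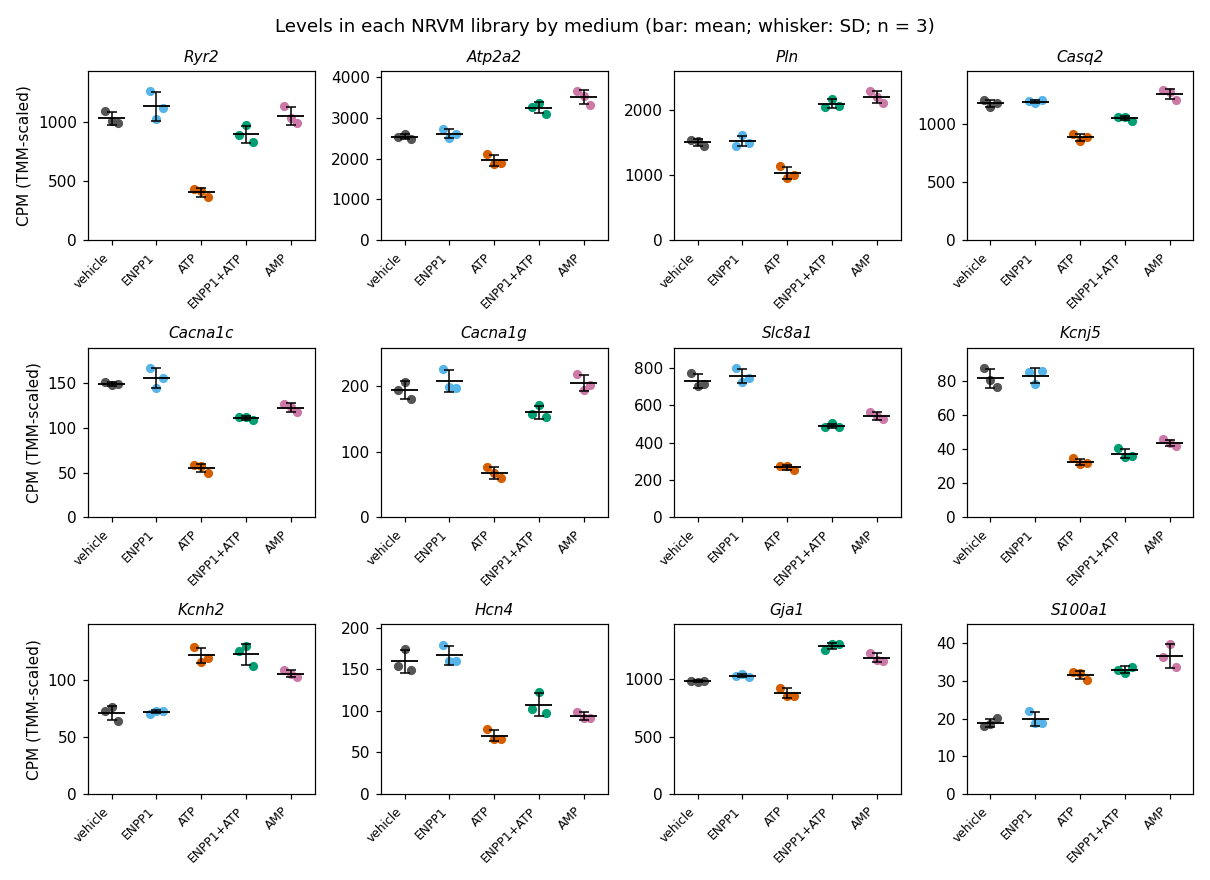
CPM (vertical axes, starting at 0) of 12 genes in each of the 15 NRVM libraries by medium; points are libraries, bars means and whiskers SD of 3. Ryr2, Cacna1c, Cacna1g and Slc8a1 are lowest with ATP and higher with ENPP1+ATP, also when scaled to sarcomere genes. Kcnh2 and S100a1 are higher than with vehicle in each of ATP, ENPP1+ATP and AMP medium.

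Calcium channels of the cell membrane formed the second group, with 5 tested. ATP medium lowered all 5 under TMM scaling and 3 under sarcomere scaling, where Cacna1h was higher, against 29.7% and 4.78% of all genes lower. ENPP1+ATP lowered 3 and raised 1 (2 and 1 with sarcomere scaling), and AMP lowered 2 and raised 1 under both scalings. Each of the 5 was higher in ENPP1+ATP than in ATP medium under TMM scaling, and 3 of 5 under sarcomere scaling, where 14.1% and 1.14% of all genes were higher.

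Cacna1c encodes the pore of the L-type channel. Its levels were 152, 148 and 149 CPM with vehicle, 167, 145 and 156 CPM with ENPP1, 58.5, 57.7 and 49.9 CPM with ATP, 113, 112 and 109 CPM with ENPP1+ATP, and 127, 123 and 118 CPM with AMP. Those with ATP, ENPP1+ATP, AMP and vehicle formed 4 ranges that did not overlap. AMP against ENPP1+ATP was nevertheless not called, at 0.14 ± 0.05 (adjusted p = 0.0778) under TMM scaling and -0.09 under sarcomere scaling. Under TMM scaling it passed in the fit of these 2 groups alone (adjusted p = 0.0473) and without AMP replicate 3 (0.17). The differences from vehicle were -1.43 ± 0.05, -0.42 ± 0.05 and -0.28 ± 0.05 with ATP, ENPP1+ATP and AMP (adjusted p = 1.65e-25, 1.61e-09 and 5.58e-06), and ENPP1+ATP exceeded ATP by 1.01 ± 0.05.

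Accessory subunits of the same channel did not move alike. Cacna2d1, encoding the α2δ subunit that promotes channel trafficking, had 95.8, 86.9 and 85.4 CPM with vehicle, 36.3, 33.1 and 34.9 CPM with ATP, 46.4, 50.0 and 47.4 CPM with ENPP1+ATP, and 54.0, 54.8 and 57.5 CPM with AMP. It stayed at -0.90 ± 0.06 with ENPP1+ATP and -0.69 ± 0.06 with AMP, after -1.36 ± 0.06 with ATP. Cacnb2, encoding the β subunit, had 85.8, 89.4 and 85.1 CPM with vehicle, 54.5, 51.5 and 48.4 CPM with ATP, 83.8, 77.8 and 79.5 CPM with ENPP1+ATP, and 92.8, 86.7 and 83.2 CPM with AMP. Its difference was -0.75 ± 0.05 with ATP (-0.01, not called, with sarcomere scaling), -0.11 ± 0.05 with ENPP1+ATP (adjusted p = 0.0691; 95% interval -0.22 to -0.01) and 0.01 ± 0.05 with AMP. The ENPP1+ATP difference passed the threshold without ENPP1+ATP replicate 1 (-0.14) and in the fit of these 2 groups alone (adjusted p = 0.0417).

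Low-voltage T-type channels carry calcium current in immature and nodal myocytes, and their 2 genes differed. Cacna1g had 195, 207 and 181 CPM with vehicle, 227, 199 and 197 CPM with ENPP1, 76.5, 66.9 and 59.1 CPM with ATP, 158, 171 and 153 CPM with ENPP1+ATP, and 218, 194 and 203 CPM with AMP. Its fall with ATP, -1.53 ± 0.09 (adjusted p = 1.57e-08), was the largest of any member in that comparison under TMM scaling. ENPP1+ATP stood at -0.28 ± 0.09, a call that was lost without ENPP1+ATP replicate 1 (-0.26), ENPP1+ATP replicate 3 (-0.24) or vehicle replicate 2 (-0.23) and under sarcomere scaling (-0.03), and AMP at 0.08 ± 0.09, not called. Cacna1h measured 145 to 154 CPM with vehicle, 131 to 147 CPM with ATP, 180.4 to 198 CPM with ENPP1+ATP and 195 to 210.4 CPM with AMP. It rose by 0.35 ± 0.05 with ENPP1+ATP and 0.43 ± 0.05 with AMP, and its small fall with ATP (-0.14 ± 0.05) became a rise of 0.61 under sarcomere scaling.

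Of the genes for ion extrusion, Slc8a1 encodes the sodium-calcium exchanger. It was read at 772, 706 and 713 CPM with vehicle, 799.6, 727 and 748 CPM with ENPP1, 275, 272 and 252 CPM with ATP, 486, 504 and 481 CPM with ENPP1+ATP, and 565, 540.4 and 526 CPM with AMP. Again the 4 media with vehicle, AMP, ENPP1+ATP and ATP gave ranges in that falling order without overlap. Differences from vehicle were -1.45 ± 0.04, -0.58 ± 0.04 and -0.43 ± 0.04 for ATP, ENPP1+ATP and AMP (adjusted p = 5.17e-29, 1.96e-15 and 1.45e-11). Atp1b1, encoding the β subunit of the sodium-potassium pump, had 457 to 469 CPM with vehicle, 468 to 538 CPM with ATP, 569 to 590.0 CPM with ENPP1+ATP and 573 to 589 CPM with AMP, and rose by 0.11 ± 0.04, 0.32 ± 0.04 and 0.33 ± 0.04. The ATP range overlapped vehicle.

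Ratios of 2 genes within a library do not depend on how libraries are scaled. The pairs below were chosen after the values were seen and are given as a description, without a test. Log2 of Slc8a1 over Atp2a2, the genes for the 2 main routes of calcium removal, was lower than with vehicle by 1.08, 0.93 and 0.89 in ATP, ENPP1+ATP and AMP medium, with no overlap with vehicle, and 0.02 higher with ENPP1 medium. Log2 of Pln over Atp2a2 differed from vehicle by -0.17 with ATP, 0.13 with ENPP1+ATP, 0.09 with AMP and -0.02 with ENPP1. The 3 ENPP1 libraries ranged from -0.90 to -0.63 in this ratio, which takes in all AMP libraries (-0.68 to -0.65). Log2 of Cacna1c over Ryr2 differed by -0.09 with ATP, -0.22 with ENPP1+ATP, -0.32 with AMP and -0.07 with ENPP1, whose libraries (-2.91 to -2.82) took in those with ATP (-2.90 to -2.86).

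**Figure D4:**
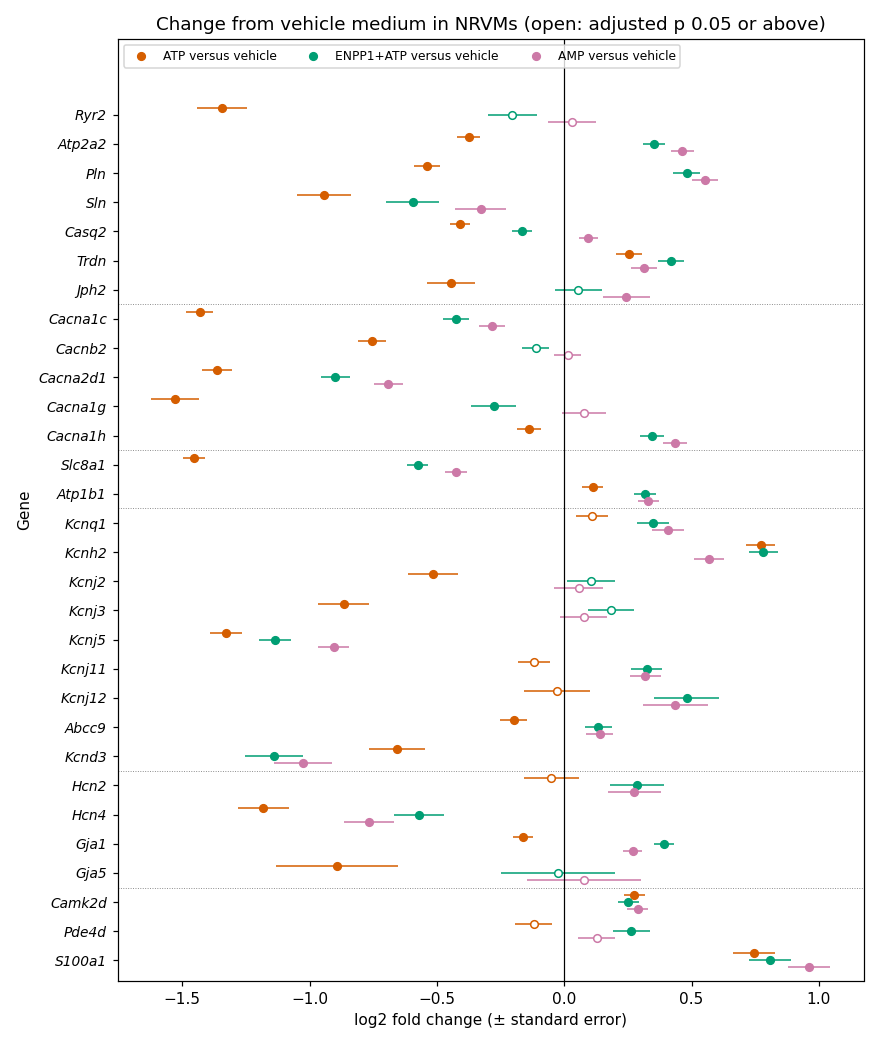
Log2 fold change from vehicle (horizontal axis, with standard error) of 30 genes (vertical axis, in blocks by role) for ATP, ENPP1+ATP and AMP medium under TMM scaling; open symbols did not pass the adjusted p threshold of 0.05. For Ryr2, Cacna1c, Cacna1g and Slc8a1 the ATP symbols lie at -1.34 to -1.53 and the ENPP1+ATP symbols at -0.58 to -0.20, while Kcnj5 and Kcnd3 are at -1.14 with ENPP1+ATP.

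Of 9 potassium channel genes tested, ATP medium lowered 5 and raised 1 under TMM scaling, and 1 and 6 under sarcomere scaling, where 80.5% of all genes were higher. ENPP1+ATP and AMP medium each raised 5 and lowered 2 (7 and 2, and 4 and 2, with sarcomere scaling, where 50% and 28.2% of all genes were higher).

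Kcnh2, the hERG channel of repolarization, rose in all 3 media. Levels were 72.7, 75.7 and 63.9 CPM with vehicle, 70.1, 72.6 and 72.4 CPM with ENPP1, 129, 116 and 119 CPM with ATP, 125, 129.5 and 111 CPM with ENPP1+ATP, and 108, 105 and 102 CPM with AMP. The 9 libraries of those 3 media all lay above the 6 with vehicle or ENPP1 medium. The rises were 0.77 ± 0.06, 0.78 ± 0.06 and 0.57 ± 0.06 (adjusted p = 9.95e-15, 9.04e-15 and 6.63e-11), and ENPP1+ATP differed from ATP by 0.01 ± 0.05 (95% interval -0.10 to 0.12). Under sarcomere scaling the last difference was -0.49 and was called. Kcnq1, the pore of the slow delayed rectifier, had 40.9 to 45.6 CPM with vehicle, 44.0 to 51.1 CPM with ATP, 54.4 to 55.6 CPM with ENPP1+ATP and 56.02 to 59.98 CPM with AMP. It rose by 0.35 ± 0.06 with ENPP1+ATP and 0.41 ± 0.06 with AMP, and was not called with ATP (0.11 ± 0.06), which became 0.85 and a call under sarcomere scaling.

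The inward rectifiers split. Kcnj3 and Kcnj5 encode the 2 subunits of the acetylcholine-activated channel, which slows pacemaking under vagal tone and also opens in response to adenosine. Kcnj5 had 87.7, 80.9 and 76.7 CPM with vehicle, 85.2, 78.0 and 85.9 CPM with ENPP1, 34.7, 31.4 and 31.7 CPM with ATP, 40.5, 35.6 and 35.7 CPM with ENPP1+ATP, and 45.7, 43.4 and 41.8 CPM with AMP. It stayed low in every medium that had received a nucleotide, at -1.33 ± 0.06, -1.14 ± 0.06 and -0.91 ± 0.06 (adjusted p = 6.55e-22, 1.44e-19 and 1.59e-16). Kcnj3 had 20.1, 22.0 and 21.1 CPM with vehicle, 13.8, 10.6 and 10.4 CPM with ATP, 23.0, 23.9 and 25.1 CPM with ENPP1+ATP, and 24.1, 21.3 and 21.3 CPM with AMP. It fell by 0.87 with ATP (-0.13, not called, with sarcomere scaling) and stood at 0.18 ± 0.09 with ENPP1+ATP (adjusted p = 0.0841), which was 0.43 and a call under sarcomere scaling, and 0.08 ± 0.09 with AMP. The partner subunits were therefore reduced together with ATP under TMM scaling, and only Kcnj5 was called lower with ENPP1+ATP and AMP.

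Kcnj2 and Kcnj12 encode channels of the resting inward rectifier current. Kcnj2 had 19.7 to 22.2 CPM with vehicle and 13.2 to 16.4 CPM with ATP, a fall of 0.51 that became a rise of 0.23 under sarcomere scaling, and was not called with ENPP1+ATP (0.10 ± 0.09) or AMP (0.06 ± 0.10). Under sarcomere scaling the Kcnj2 difference with ENPP1+ATP was 0.35 and was called. Kcnj12 had 11.9 to 14.8 CPM with vehicle, 10.9 to 15.2 CPM with ATP, 17.2 to 19.3 CPM with ENPP1+ATP and 16.2 to 19.2 CPM with AMP. It rose by 0.48 ± 0.13 and 0.44 ± 0.13 in the last 2 media. For the ATP-sensitive channel, the pore gene Kcnj11 had 53.6 to 56.1 CPM with vehicle, 47.3 to 55.8 CPM with ATP, 67.8 to 70.0 CPM with ENPP1+ATP and 62.5 to 73.4 CPM with AMP. Its rises were 0.32 ± 0.06 with both ENPP1+ATP and AMP, and ATP gave -0.12 ± 0.06 (adjusted p = 0.0982), a call without ATP replicate 1 (-0.19).

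Abcc9, the regulatory subunit of ATP-sensitive channels in muscle, which also marks pericytes, had 102 to 108 CPM with vehicle, 87.8 to 99.2 CPM with ATP, 110.3 to 119.6 CPM with ENPP1+ATP and 111 to 128 CPM with AMP. Its changes were small, -0.20 ± 0.05, 0.13 ± 0.05 and 0.14 ± 0.05, and the first became 0.55 under sarcomere scaling. DESeq2 called neither rise (adjusted p = 0.0765 and 0.0563). With ENPP1+ATP the call was lost without ENPP1+ATP replicate 2 (0.11) or 3 (0.12), or vehicle replicate 1 (0.14) or 2 (0.11), and with AMP without AMP replicate 3 (0.07) or vehicle replicate 2 (0.12), and under sarcomere scaling (0.16).

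Kcnd3 encodes a pore of the transient outward current, and it was the 1 member that was lower with ENPP1+ATP than with ATP under TMM scaling. It had 16.3, 17.2 and 19.6 CPM with vehicle, 19.9, 18.1 and 18.4 CPM with ENPP1, 11.5, 11.6 and 10.5 CPM with ATP, 7.47, 7.28 and 9.30 CPM with ENPP1+ATP, and 8.75, 8.06 and 9.26 CPM with AMP. The ENPP1+ATP and AMP libraries all lay below those with ATP. Differences from vehicle were -0.66 ± 0.11, -1.14 ± 0.11 and -1.03 ± 0.11, and ENPP1+ATP was below ATP by -0.48 ± 0.12 (adjusted p = 0.00153), with a negative interaction of -0.57 ± 0.16 (adjusted p = 0.00933). Under sarcomere scaling ENPP1+ATP against ATP was -0.98, while ATP against vehicle was 0.09 and not called.

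Pacemaker channels and connexins gave 4 genes, of which ATP medium lowered 3 under TMM scaling, against 2 higher and 1 lower under sarcomere scaling, where 80.5% of all genes were higher and 4.78% lower. Hcn4, the main pacemaker channel of the sinus node and of immature myocytes, had 154, 175 and 149 CPM with vehicle, 179.6, 160.5 and 159.7 CPM with ENPP1, 77.9, 66.6 and 66.5 CPM with ATP, 103, 123 and 96.9 CPM with ENPP1+ATP, and 99.1, 91.4 and 90.8 CPM with AMP. None of the 9 nucleotide libraries reached the vehicle range. Hcn4 was lower than vehicle by -1.18 ± 0.10, -0.57 ± 0.10 and -0.77 ± 0.10 (adjusted p = 5.57e-07, 0.000307 and 2.75e-05). Hcn2, another pacemaker channel, had 14.9 to 18.5 CPM with vehicle, 15.4 to 15.8 CPM with ATP, 17.0 to 23.2 CPM with ENPP1+ATP and 17.4 to 21.7 CPM with AMP. The ranges overlapped vehicle. Its rises of 0.29 ± 0.11 with ENPP1+ATP and 0.28 ± 0.11 with AMP were not called by DESeq2 (adjusted p = 0.0592 and 0.0676). They were also lost without ENPP1+ATP replicate 2 (0.15), vehicle replicate 1 (0.24) or vehicle replicate 2 (0.23), and without AMP replicate 2 (0.19), vehicle replicate 1 (0.23) or vehicle replicate 2 (0.22).

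Gja1 encodes connexin 43, the main gap junction protein of the ventricle, which fibroblasts also express. Levels were 988, 979 and 989.9 CPM with vehicle, 1032, 1049 and 1019 CPM with ENPP1, 928, 856 and 859 CPM with ATP, 1260, 1310 and 1308 CPM with ENPP1+ATP, and 1234, 1168 and 1161 CPM with AMP. Each of the 3 nucleotide media lay apart from vehicle. The differences were -0.16 ± 0.04 with ATP (0.58 with sarcomere scaling), 0.39 ± 0.04 with ENPP1+ATP and 0.27 ± 0.04 with AMP (adjusted p = 0.000353, 7.34e-12 and 8.38e-08). Gja5, encoding connexin 40 of atrial and conduction tissue, had 33.2, 33.1 and 23.8 CPM with vehicle, 17.0, 19.0 and 12.6 CPM with ATP, 28.5, 34.8 and 25.3 CPM with ENPP1+ATP, and 28.8, 24.4 and 42.4 CPM with AMP. It fell by 0.89 with ATP (-0.15, not called, with sarcomere scaling), and the wide spread left 95% limits of -0.52 and 0.47 for ENPP1+ATP against vehicle.

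Signalling regulators were the last group, and none of the 3 fell. S100a1, a calcium-binding protein that enhances SR calcium cycling, had 17.9, 18.5 and 20.1 CPM with vehicle, 22.0, 18.8 and 18.9 CPM with ENPP1, 32.3, 32.0 and 30.2 CPM with ATP, 33.0, 32.1 and 33.8 CPM with ENPP1+ATP, and 36.4, 39.8 and 33.6 CPM with AMP. It rose by 0.74 ± 0.08, 0.81 ± 0.08 and 0.96 ± 0.08 (adjusted p = 1.29e-10, 1.72e-11 and 9.02e-14). ENPP1+ATP differed from ATP by 0.06 ± 0.08 (95% interval -0.09 to 0.22), and by -0.43, a call, under sarcomere scaling. Camk2d, the calcium- and calmodulin-dependent kinase of the heart, had 217 to 227 CPM with vehicle, 262 to 284 CPM with ATP, 264 to 267 CPM with ENPP1+ATP and 259.7 to 284 CPM with AMP. It rose by 0.28 ± 0.04, 0.25 ± 0.04 and 0.29 ± 0.04. Pde4d, a phosphodiesterase that limits cAMP near the release channel, had 32.6 to 37.1 CPM with vehicle, 31.7 to 33.1 CPM with ATP, 41.4 to 43.7 CPM with ENPP1+ATP and 34.2 to 41.2 CPM with AMP. It rose with ENPP1+ATP (0.26 ± 0.07, adjusted p = 0.00173) and was not called with ATP (-0.12 ± 0.07) or AMP (0.13 ± 0.07). The AMP difference was called without AMP replicate 3 (0.21), and the ATP difference became 0.62 and a call under sarcomere scaling.

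**Figure D5:**
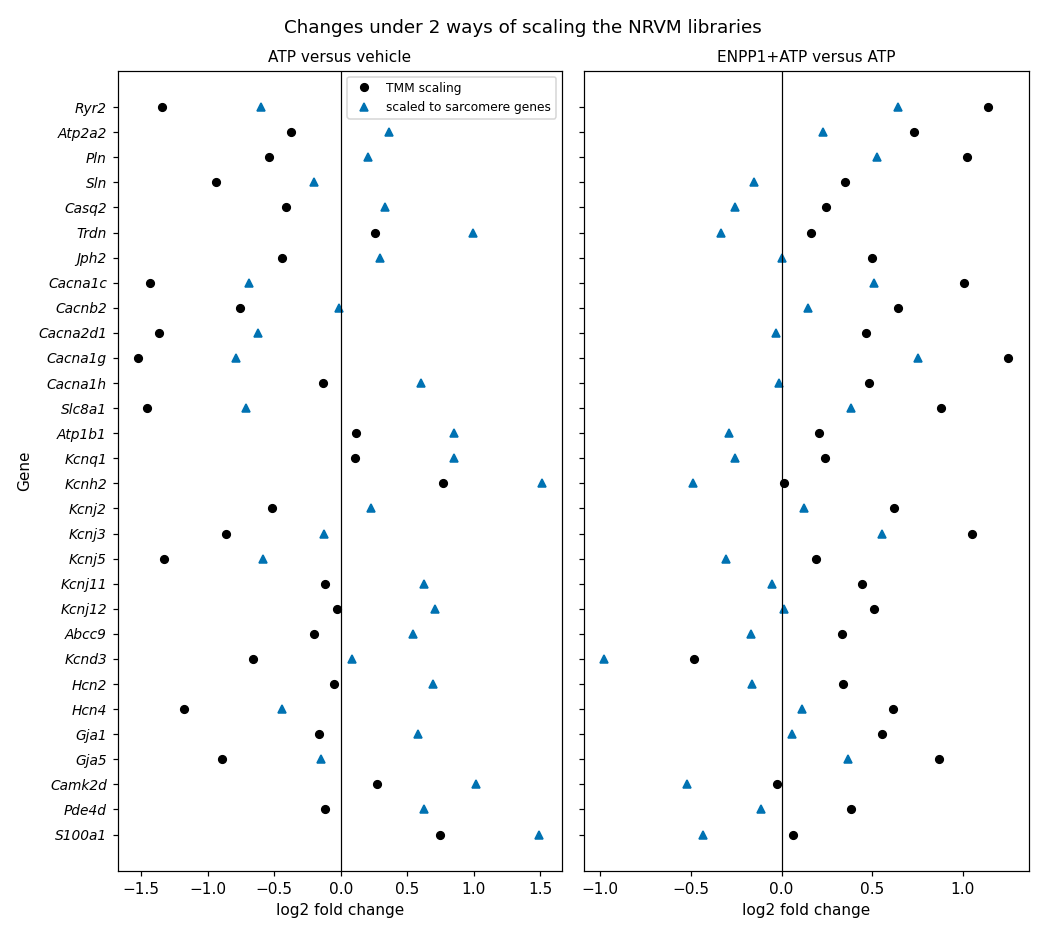
Log2 fold change (horizontal axes) of 30 genes (vertical axis) in ATP against vehicle and in ENPP1+ATP against ATP, under TMM scaling (circles) and with libraries scaled to sarcomere genes (triangles). Sarcomere scaling moves all symbols to the right on the left and to the left on the right. Ryr2, Cacna1c, Cacna1g and Slc8a1 are called lower on the left and higher on the right under both scalings. Cacnb2, Kcnj3, Hcn4 and Gja5 also keep these signs, but not every call.

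AMP and ENPP1+ATP medium were compared directly. With AMP, 5 members were higher and 2 lower than with ENPP1+ATP, where 9.66% of all genes were called, 5.81% higher and 3.85% lower. The higher ones were Casq2 (0.26 ± 0.04), Cacna2d1 (0.21 ± 0.06), Cacna1g (0.35 ± 0.09), Slc8a1 (0.15 ± 0.04) and Kcnj5 (0.23 ± 0.07). The lower ones were Kcnh2 (-0.21 ± 0.06) and Gja1 (-0.12 ± 0.04). Only Casq2 kept its call without each of the 6 libraries, and the count of 7 fell to 3, 4 or 2 without ENPP1+ATP replicate 1, 2 or 3. Scaled to sarcomere genes, 16 members were lower with AMP and none higher, where 50.9% of all genes were called, 49.8% lower and 1.15% higher, so the members' share was near that of all genes.

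The 99 other genes listed for ion transport and calcium gave a wider view, and 85 were tested. Under TMM scaling ATP medium raised 26 and lowered 38 of them, where 30.2% and 29.7% of all genes were called in these directions. ENPP1+ATP raised 24 and lowered 29 (28.6% and 27.4% of all genes), and AMP raised 26 and lowered 26 (29.2% and 28%). With sarcomere scaling these became 59 and 7 (80.5% and 4.78%), 45 and 16 (50% and 13.1%), and 26 and 24 (28.2% and 25.2%). Against ATP, ENPP1+ATP had 27 higher and 15 lower (14.1% and 13.5% of all genes), and 4 higher and 48 lower under sarcomere scaling (1.14% and 78.9%). The median of the list lay 0.04 above that of all genes under either scaling in that comparison, and that of the 30 members 0.49 above. Members and list were both chosen with earlier results of these data known. Scn4b, a sodium channel β subunit, and Fxyd5, a regulator of the sodium-potassium pump, rose by 1.66 ± 0.25 and 1.29 ± 0.17 with ENPP1+ATP. With AMP, Scn4b rose by 0.96 ± 0.27 and Fxyd5 was not called (0.02 ± 0.19). Ryr1, the skeletal muscle release channel, rose by 1.43 ± 0.56 with AMP at a mean log2 CPM of only -0.55, and was not called with ENPP1+ATP (1.16 ± 0.58). Among the falls, the sodium channel β subunit Scn3b changed by -2.29 ± 0.16 with ENPP1+ATP and -1.55 ± 0.15 with AMP, and the potassium channel Kcnt2 by -3.65 ± 0.50 and -3.84 ± 0.52 at a mean log2 CPM of -0.07. Scn7a, at a mean log2 CPM of -0.14, changed by -1.90 ± 0.50 with ENPP1+ATP and was not called with AMP (-0.60, adjusted p = 0.227).

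Immortalized mouse cardiac fibroblasts (CFs), made with the SV40 antigen from C57BL/6 mice, were given the same kinds of medium, with 2 libraries per group at 24 hours and totals of 32184799 to 115824659 reads over 20 CF libraries. Their counts were fitted separately, and levels are not compared between the tables. In CFs 22 of the members were tested, of which 4 rose and 8 fell with ENPP1+ATP against vehicle, where 49.1% of all CF genes were called, 23.9% higher and 25.3% lower. Myocyte genes were near the detection limit in CFs with vehicle, such as Ryr2 at 0.525 and 0.528 CPM and Pln at 0.692 and 0.793 CPM, whereas Atp2a2 (399 and 407 CPM), Camk2d (133 and 140 CPM), Gja1 (49.7 and 51.3 CPM) and Cacna1c (39.8 and 34.1 CPM) were well detected. Cacna1c, Cacna2d1 and Slc8a1 fell in CFs as in NRVM, by 1.06, 0.45 and 1.02, and Gja1 rose by 0.43. Kcnj2 and Cacnb2 fell by 1.14 and 1.16. The CF rise of Ryr2 (0.94 ± 0.36) was lost without any 1 of the 4 libraries compared (0.86 to 1.01). Jph2 rose by 2.81 from 0.306 and 0.264 CPM to 1.81 and 2.31 CPM.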

How the data were processed

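Total RNA of 15 NRVM libraries and 20 CF libraries was sequenced, and the authors deposited raw read counts per gene and library, with gene symbols. The submitters' processing notes name STAR 2.5.3a and the builds mm10 and rn6; the counting program, annotation and strand are not given in the sources used here, so reads of overlapping genes cannot be told apart. Every deposited sample column was used (0 left out), and the 2 single-cell libraries were not used here. The analysis used edgeR 4.0.16 under R 4.3.3, with filterByExpr, TMM scaling, a robust quasi-likelihood fit with 1 mean per medium over all 15 libraries (10 residual degrees of freedom), and Benjamini-Hochberg adjustment over all genes tested with a threshold of 0.05. CPM are TMM-scaled, ± in differences is the standard error obtained from the test statistic, and depth was 13481389 to 16977980 counts per library. Counting error in the lowest library ran from 0.584% for Atp2a2 (29348 reads) to 9.71% for Kcnd3 (106 reads), so depth limits the low-count members.

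Members and lists were chosen with earlier results of these data known. Members called in any comparison with vehicle, or in ENPP1+ATP against ATP, are named, as are the members not tested, and of each other list up to 3 rises and 3 falls by size in ENPP1+ATP or AMP against vehicle, although a few genes that this rule names are not reported here. Markers are given as summed CPM, with a few of those genes named. The alternatives were DESeq2 1.42.0, RLE scaling, scaling to the summed sarcomere genes, no low-count filter, the replicate number as a block, the compared groups alone and leaving out each library. The script was tested on simulated data. No gene lengths were used, so levels are not compared between genes.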

Additional observations from a re-analysis of the deposited data

Results flagged for a closer look

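Some members moved in opposite directions in NRVM and CFs under the same contrast, ENPP1+ATP against vehicle medium at 24 hours, with every ENPP1+ATP library on one side of vehicle in NRVM and on the other in CFs. The difference between the cell types was not tested, since the 2 tables come from 2 species and were fitted separately. Casq2 was lower in NRVM (-0.17) and higher in CFs (3.13), where it went from 0.403 and 0.552 CPM to 3.92 and 4.12 CPM. Atp1b1, the sodium-potassium pump β subunit, was higher in NRVM (0.32) and lower in CFs (-1.35). Atp2a2 was higher in NRVM (0.35) and lower in CFs (-0.12), and Camk2d was higher in NRVM (0.25) and lower in CFs (-0.17). The CF call for Atp2a2 was lost with RLE scaling (adjusted p = 0.0627) and without ENPP1+ATP replicate 2 (-0.08), vehicle replicate 1 (-0.14) or vehicle replicate 2 (-0.11), and that for Camk2d without ENPP1+ATP replicate 2 (-0.14) or vehicle replicate 2 (-0.14). Scaled to sarcomere genes, the NRVM difference of Casq2 was 0.08.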

How the results depend on the processing

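Scaling to sarcomere genes was the alternative that changed the direction of differences that passed the threshold under at least 1 of both scalings. By construction it moves all genes of a comparison nearly alike, and the members' medians relative to all genes barely moved (-0.43 and -0.44 in ATP against vehicle), and whether that sum or TMM is the better reference was not tested. Under it, members with opposite signs to those under TMM scaling, where at least 1 of both values passed the threshold, were as follows. In ENPP1+ATP against vehicle it was Casq2 at 0.080. In ATP against vehicle they were Atp2a2 0.37, Pln 0.20, Casq2 0.33, Jph2 0.30, Cacna1h 0.61, Kcnj2 0.23, Kcnj11 0.62, Kcnj12 0.71, Abcc9 0.55, Kcnd3 0.086, Hcn2 0.69, Gja1 0.58, Pde4d 0.62. In ENPP1+ATP against ATP they were Sln -0.15, Casq2 -0.25, Trdn -0.33, Cacna2d1 -0.033, Cacna1h -0.015, Atp1b1 -0.29, Kcnq1 -0.26, Kcnh2 -0.49, Kcnj5 -0.31, Kcnj11 -0.054, Abcc9 -0.17, Hcn2 -0.16, Pde4d -0.11, S100a1 -0.43. In AMP against ENPP1+ATP, where 16 members in place of 7 were called, they were Atp2a2 -0.12, Pln -0.16, Cacna2d1 -0.023, Cacna1h -0.14, Slc8a1 -0.083, Atp1b1 -0.22, Kcnq1 -0.17, Kcnj5 -0.0040, Abcc9 -0.22, Camk2d -0.20. For the interaction they were Sln -0.011, Casq2 -0.25, Trdn -0.31, Cacna2d1 -0.14, Cacna1h -0.028, Atp1b1 -0.36, Kcnq1 -0.26, Kcnj5 -0.31, Kcnj11 -0.039, Abcc9 -0.27, Hcn2 -0.012, Pde4d -0.26. These 50 were among 83 of 180 member differences whose call or direction changed under this scaling. Of the others, 15 passed only under sarcomere scaling and 18 only under TMM scaling, with the sign kept. Those against vehicle stand in the text above. In ENPP1+ATP against ATP, the calls for Jph2, Kcnj2, Kcnj12, Hcn4, Gja1 and Gja5 were lost (0.0042 to 0.37) and Camk2d gained one (-0.52). In AMP against ENPP1+ATP, Casq2 (0.028) and Cacna1g (0.12) lost theirs, and Trdn, Kcnj2, Kcnj3, Kcnj11, Kcnj12, Hcn4 and Pde4d gained one (-0.43 to -0.24). For the interaction, Cacnb2, Kcnj2, Hcn4 and Gja1 lost theirs (0.0074 to 0.13), and Kcnh2, Camk2d and S100a1 gained one (-0.54 to -0.49). Another 10 differences that passed under neither scaling also changed sign. The splits into higher and lower are in the text above.

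No value called under TMM scaling or the alternative reversed with DESeq2, RLE scaling, no low-count filter, the replicate block, the compared groups alone or 1 library left out. Among values called under neither, 43 changed sign with 1 library left out, 1 with no filter and 1 with the compared groups alone. DESeq2 changed 9 of 202 calls, among them Kcnj5 in ENPP1+ATP against ATP (0.19), Sln (0.47) and Hcn2 (0.47) in the interaction and Ryr2 in CFs (0.96), all lost, and Gja5 in the interaction (0.91), gained, RLE scaling 1 of 202, no filter 6 of 202 and the compared groups alone 8 of 200. Leaving out 1 library gave 21 to 24 members called for ENPP1+ATP against vehicle, 20 to 22 for AMP, 24 to 25 for ATP, 0 for ENPP1, 23 to 27 for ENPP1+ATP against ATP, 2 to 6 for AMP against ENPP1+ATP, 15 to 21 for the interaction, 29 to 30 for any medium and 9 to 11 in CFs. Interaction calls lost this way were Hcn4 without ATP replicate 2 or 3 (0.51), Hcn2 without ATP replicate 2 or 3, ENPP1 replicate 3, ENPP1+ATP replicate 2 or vehicle replicate 3 (0.33 to 0.47), and Sln without ATP replicate 1 or 3, ENPP1 replicate 1, ENPP1+ATP replicate 1 or 2, or vehicle replicate 1 or 2 (0.38 to 0.47). The labels do not say whether same-numbered libraries belong together. The correlation of their deviations from the group means ran from -0.17 to 0.12 with 1 of 30 pairs over 0.1. Of 15 libraries, 4 correlated best with their own number. With 3 libraries per mean, these values show no clear pairing but cannot establish that there was none. The replicate block gave 25, 22, 25, 0, 27, 8, 18, 30 and 12 members called in the order above, with Ryr2 called in ENPP1+ATP against vehicle (-0.20) and in AMP against ENPP1+ATP (0.23), and Jph2 no longer called in AMP against vehicle (0.24). In ENPP1+ATP against vehicle, the low-count members Kcnj12, Kcnd3, Hcn2 and Sln had standard errors of 0.10 to 0.13, wider than any other member but Gja5 (0.22).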

Other observations

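Transcription factors that pattern cardiac rhythm and conduction were listed beside the channel genes, and all 20 were tested in NRVM. Under TMM scaling ATP medium raised 3 and lowered 11 of them, where 30.2% of all genes rose and 29.7% fell. ENPP1+ATP and AMP medium each raised 6 and lowered 6 against vehicle, near the shares of all genes (28.6% and 27.4%, and 29.2% and 28%). Against ATP medium, ENPP1+ATP had 15 higher and 0 lower (14.1% and 13.5% of all genes), and the interaction was positive for 9 and negative for 0 (8.01% and 6.8%). With sarcomere scaling, which moves all genes of a comparison nearly alike, these counts became 10 higher and 3 lower for ATP (80.5% and 4.78% of all genes), 10 and 3 for ENPP1+ATP (50% and 13.1%), 6 and 6 for AMP (28.2% and 25.2%), 3 and 6 for ENPP1+ATP against ATP (1.14% and 78.9%), and 2 and 6 for the interaction (0.773% and 66.1%). The median of the list minus that of all genes was -0.57 for ATP under either scaling, and 0.41 for ENPP1+ATP against ATP. Mef2c, Nkx2-5 and Mef2d, general myocyte factors, rose with ENPP1+ATP by 0.44 ± 0.05, 0.39 ± 0.13 and 0.34 ± 0.05. Irx3, Tbx18 and Irx5 were lower by -0.72 ± 0.07, -0.68 ± 0.09 and -0.62 ± 0.09. With AMP, Hey2 and Nkx2-5 rose by 0.69 ± 0.24 and 0.37 ± 0.13, and Tbx18, Irx3 and Irx5 were lower by -0.94 ± 0.09, -0.79 ± 0.07 and -0.70 ± 0.09. Irx3 and Irx5 pattern ion channel expression across the ventricular wall and in conduction tissue, and Tbx18 is known from the sinus node and the epicardium.

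Within the marker lists, single genes moved both ways. Of the sarcomere genes used for scaling, 15 of 18 were lower and 1 higher with ATP than with vehicle, with a median difference of -0.66. Falls were uneven among the cardiomyocyte markers. Myh7 and Actc1 had means of 14350 and 11190 CPM with vehicle and 6977 and 4388 CPM with ATP. Myh6 had 1705 and 1663 CPM, Mybpc3 2792 and 2638 CPM, and Tnni3 888.7 and 1011 CPM. With ENPP1+ATP, 13 of 18 sarcomere genes were lower and 2 higher (Myh6 0.76 ± 0.07 and Tnni3 0.29 ± 0.06 higher, Csrp3 -1.12 ± 0.04 lowest). With AMP, 8 were lower and 4 higher. Over all genes, 29.7% were lower and 30.2% higher with ATP, 27.4% and 28.6% with ENPP1+ATP, and 28% and 29.2% with AMP. Among fibroblast markers, Tcf21 differed from vehicle by -2.29 ± 0.10 and -2.50 ± 0.10 with ENPP1+ATP and AMP, while Thy1 was higher by 0.45 ± 0.17 and 0.60 ± 0.17. Proliferation genes summed to 767.3 to 791.55 CPM with vehicle, 914.14 to 974.16 CPM with ATP, 816.74 to 829.5 CPM with ENPP1+ATP and 997.34 to 1037.9 CPM with AMP. Of the 14, 6, 4 and 9 were higher and 2, 4 and 2 lower than with vehicle in these 3 media. With ENPP1+ATP, Rrm2, Pcna and Aurkb rose by 0.82, 0.49 and 0.43, and Ccnb1, Plk1 and Cdk1 changed by -0.82, -0.71 and -0.23. Against ATP, ENPP1+ATP had 0 higher and 7 lower, where 14.1% and 13.5% of all genes were called.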
